A study of Oryctolagus cuniculus with 9 samples.

Results

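The 10 genes described here store iron, carry it between cells and control its level inside them: FTL and FTH1 (the ferritin chains), TF (transferrin), TFRC (its receptor), SLC40A1 (ferroportin), SLC11A1 and SLC11A2 (the NRAMP transporters), CP (ceruloplasmin), NCOA4 and IREB2. They were taken by name from a table of 20525 genes measured in rabbit (Oryctolagus cuniculus) vocal folds, and all 10 were found and passed the filter on low counts, which kept 17344 genes. Polyadenylated RNA was sequenced from 3 normal folds without injury, 3 injured folds left untreated and 3 that received SOT, a hydrogel described in the study's title as antioxidant and adhesive, after injury. Injured folds were sampled 1 week after injury. The labels give no strain, age or sex, no sham surgery and no gel-only control, and leave it unstated whether each replicate came from its own animal, so the p-values speak only for the variation among these libraries, some of which may be technical.

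Iron that enters a tissue in plasma is bound to transferrin and is taken up by the transferrin receptor. Inside the cell it is used, stored in the ferritin shell built of heavy and light chains, or exported through ferroportin, with ceruloplasmin oxidising it outside. Iron regulatory proteins hold back ferritin translation and stabilise the TFRC transcript when iron is short, so that transcript and protein need not move together. Macrophages recycle iron from red cells, and in inflamed tissue they and neutrophils hold iron away from microbes.

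The deposited build is OryCun2.0. TF lay on chromosome 14 at 27729544 to 27758319, TFRC on the same chromosome at 92652686 to 92675981 and CP at 42965505 to 43043002. SLC40A1 lay on chromosome 7 at 129931645 to 129952945, SLC11A1 on chromosome 7 at 159706995 to 159714446, SLC11A2 on chromosome 4 at 35295248 to 35333751 and NCOA4 on chromosome 18 at 6013459 to 6028127. FTL, FTH1 and IREB2 were on unplaced scaffolds. Ferritin genes have many near-identical processed copies in mammals, so the FTL and FTH1 values are uncertain to the extent that such copies shared reads.

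Total counts were between 44755718 and 50338111 per library. The labels call the cell type histiocytes, a name for tissue macrophages, yet COL1A1 of fibroblasts (1380 CPM or more), KRT5 of stratified epithelium (1050 CPM or more) and ACTA1 of muscle (152 CPM or more) were present in all 9 libraries beside CD68 of macrophages (29.9 CPM or more), so the libraries were read as whole tissue. CPM is a read count divided by the scaled library size and set to a common total. In bulk tissue, fewer cells of a type and less RNA per cell cannot be told apart. The SOT libraries were further apart than the others: their root mean square log2 difference over the tested genes was 1.01 to 1.02 between each pair, against 0.69 to 0.96 between untreated and 0.80 to 0.90 between normal libraries. From the untreated libraries SOT replicate 1 was 0.79 to 1.02 away, SOT replicate 2 0.97 to 1.01 and SOT replicate 3 1.00 to 1.21, so that the ranges overlapped. From the normal libraries they were 1.24 to 1.36, 1.41 to 1.51 and 1.06 to 1.22 away. Because the SOT libraries were far apart, results on that group are given by library. They are also given without replicate 1, which was singled out after its values were seen.

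The first comparison, of injured untreated with normal folds, addresses which iron genes differ 1 week after injury. Of the 10 genes, 6 rose, none fell and 4 did not pass (edgeR's quasi-likelihood test, adjusted p under 0.05). Of all tested genes 17.7% rose and 15.1% fell, 32.8% in all. Both ferritin chains and the transferrin receptor rose between 4.65-fold and 4.77-fold, the phagosomal transporter SLC11A1 rose 33.2-fold, ceruloplasmin 3.13-fold and SLC11A2 1.71-fold. TF, SLC40A1, NCOA4 and IREB2 did not pass. The median log2 fold change of the 10 genes was 1.21, against -0.02 over all tested genes. In 7 of the 10 the libraries of both groups did not overlap, as in 55.1% of all tested genes, the seventh being IREB2.

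**Figure D1:**
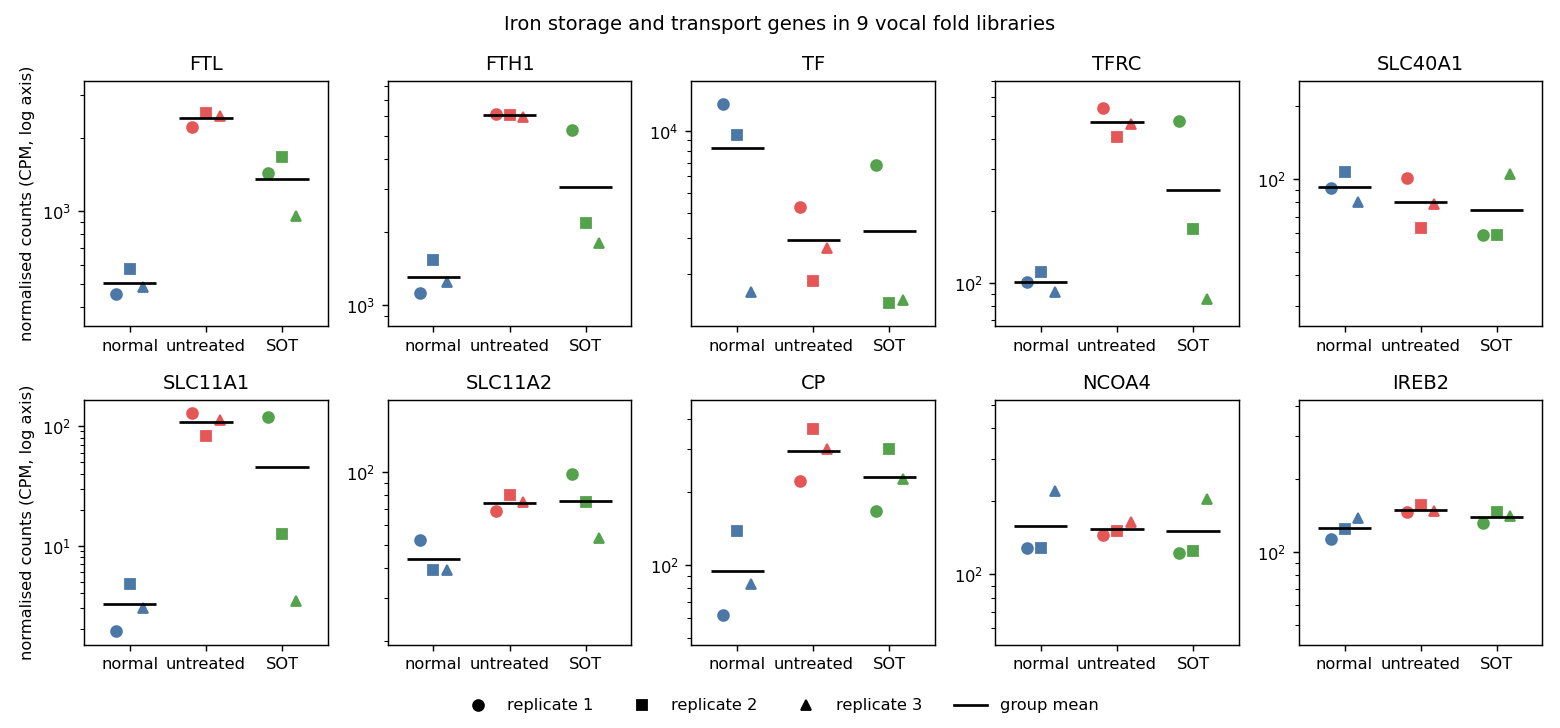
Normalised counts (CPM, log axis) of the 10 genes in each of the 9 libraries, with a marker shape per replicate and a bar at the mean of each group. FTH1 was between 1120 and 1540 CPM in normal and between 5980 and 6140 CPM in untreated folds, while SOT replicate 1 (5250 CPM) lay nearer to the untreated libraries and SOT replicates 2 and 3 (2180 and 1810 CPM) nearer to the normal ones.

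FTL encodes the light chain of ferritin, which lines the mineral core. It was at 452, 577 and 487 CPM in the normal libraries and at 2220, 2540 and 2460 CPM in the untreated ones (log2 fold change 2.25, SE 0.23, adjusted p = 0.000637). FTH1 encodes the heavy chain, which oxidises the iron that enters. It was at 1120, 1540 and 1250 CPM in normal and at 6140, 6080 and 5980 CPM in untreated libraries (log2 fold change 2.22, SE 0.39, adjusted p = 0.00444). The untreated libraries were nearly alike for both chains and all lay far above every normal library. The chains together took 0.153% to 0.212% of all counts in normal folds and 0.796% to 0.817% in untreated folds. FTH1 ranked 45th to 70th by count in the normal libraries and 6th to 8th in the untreated ones.

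The chains rose in step. Per unit of length (FPKM), FTL stood at 0.365 ± 0.0137 of FTH1 in normal and at 0.372 ± 0.029 in untreated folds (SD, n = 3). The log2 ratio differed by 0.028, less than the spread between libraries (two-sided exact permutation p = 0.7, where 3 against 3 allows no less than 0.1).

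Among the uptake genes, TFRC, the receptor that brings iron-loaded transferrin into the cell, was at 101, 111 and 91.2 CPM in normal and at 539, 410 and 463 CPM in untreated libraries. Its log2 fold change was 2.22 (SE 0.54, adjusted p = 0.0153), but the adjusted p was 0.0531 without normal replicate 1 and 0.0504 without normal replicate 3. SLC11A1 pumps divalent metal out of the phagosome of macrophages and neutrophils. It was at 1.94, 4.79 and 3.04 CPM in normal and at 128, 83.1 and 113 CPM in untreated libraries (log2 fold change 5.05, SE 1.21, adjusted p = 0.0148, and 0.0585 and 0.0504 without normal replicates 1 and 3). No library of either gene in the untreated group came near the normal range. SLC11A2, the widely expressed transporter that moves iron out of the endosome, was at 52.1, 39.2 and 39.4 CPM in normal and at 68.8, 79.7 and 74.9 CPM in untreated libraries (log2 fold change 0.77, SE 0.22, adjusted p = 0.0264). That call was lost without normal replicate 2 (0.0833) or 3 (0.0781) or untreated replicate 2 (0.0831) or 3 (0.0777). Per unit of length, SLC11A1 stood at 0.108 ± 0.0585 of SLC11A2 in normal folds and at 2.02 ± 0.563 in untreated folds.

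Among the export genes, CP, the copper ferroxidase that helps iron leave cells, was at 61.9, 137 and 83.1 CPM in normal and at 221, 363 and 299 CPM in untreated libraries (log2 fold change 1.65, SE 0.34, adjusted p = 0.00822). SLC40A1, the iron exporter itself, was at 91.6, 107 and 80.6 CPM in normal and at 101, 62.5 and 78.6 CPM in untreated libraries, and the groups overlapped. Its log2 fold change of -0.21 had a 95% interval of -0.81 to 0.40 (adjusted p = 0.581). The FPKM of SLC40A1 was 1.42 ± 0.0618 times that of TFRC in normal folds and 0.262 ± 0.0267 times in untreated folds.

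TF, the plasma iron carrier, had the widest spread of the 10 genes among normal libraries. It was at 13400, 9570 and 1640 CPM there and at 4250, 1860 and 2690 CPM in untreated libraries, so that normal replicate 3 lay below every untreated library. Its log2 fold change of -1.48 (SE 0.84) did not pass (adjusted p = 0.204), with a 95% interval of -3.40 to 0.43. TF had the highest count of all genes in normal replicate 1 and took 1.3% of its counts, against 0.167% in normal replicate 3.

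Of the regulators, NCOA4, which delivers ferritin to the lysosome for breakdown, was at 128, 128 and 220 CPM in normal and at 146, 151 and 164 CPM in untreated libraries (log2 fold change -0.05, 95% interval -0.65 to 0.56, adjusted p = 0.909). IREB2 encodes iron regulatory protein 2, which binds ferritin and TFRC transcripts. It was at 113, 124 and 137 CPM in normal and at 145, 155 and 147 CPM in untreated libraries. The groups did not overlap, but the log2 fold change of 0.26 was small and did not pass (adjusted p = 0.0804). The 95% interval of IREB2 was 0.03 to 0.49.

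**Figure D2:**
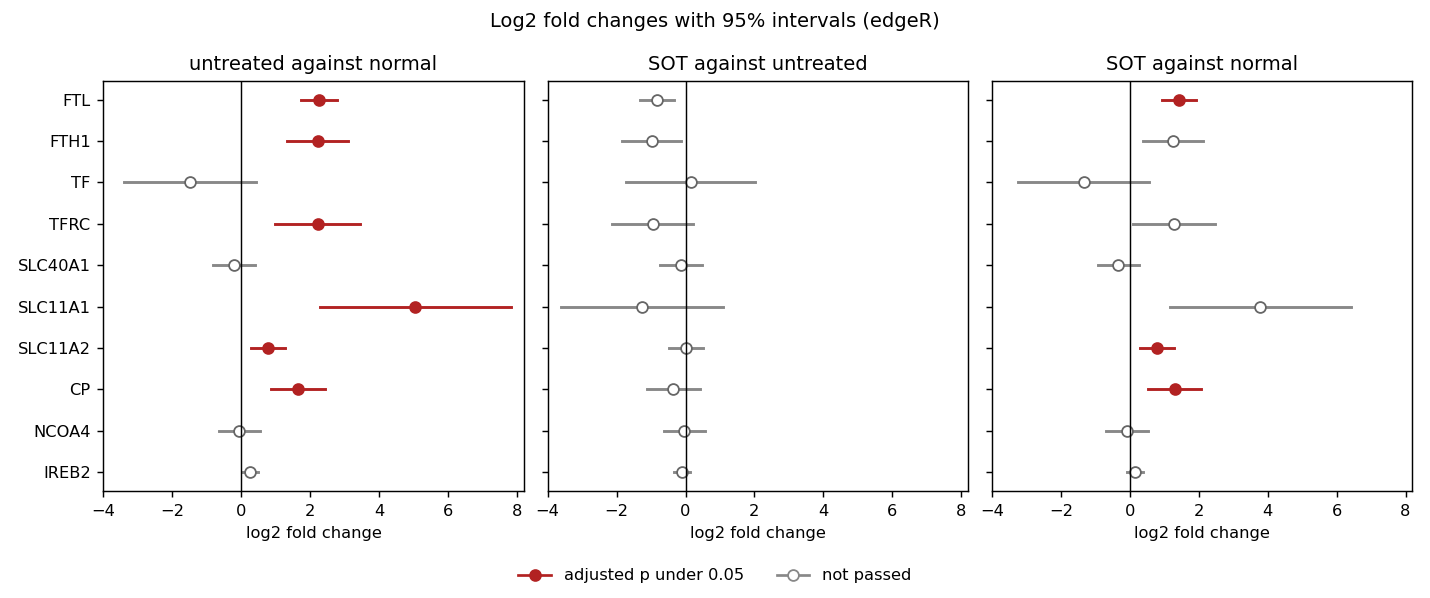
Log2 fold change (points) and 95% interval (lines, not adjusted for the number of genes) of the 10 genes in each of 3 comparisons by edgeR, filled where the adjusted p was under 0.05. FTL, FTH1, TFRC, SLC11A1, SLC11A2 and CP passed in untreated against normal folds, none in SOT against untreated, and FTL, SLC11A2 and CP in SOT against normal.

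Ordered per unit of length, the genes changed places with injury. In normal folds TF (3070 ± 2230 FPKM) and FTH1 (1580 ± 270 FPKM) led with overlapping ranges, followed by FTL (574 ± 76.4 FPKM) and, far below, NCOA4 (42.4 ± 14.7 FPKM). SLC40A1, CP, IREB2 and TFRC followed between 24.1 and 16.9 FPKM, each overlapping the next. SLC11A2 (12.5 ± 1.95 FPKM) and SLC11A1 (1.28 ± 0.578 FPKM) came last. In untreated folds FTH1 (7180 ± 70.3 FPKM) and FTL (2670 ± 184 FPKM) stood above TF (1080 ± 447 FPKM), with no overlap between neighbours. TFRC, CP, SLC11A1 and NCOA4 came next, between 77.0 and 40.0 FPKM, again each overlapping the next. IREB2, SLC11A2 and SLC40A1 were lowest, between 22.2 and 20.4 FPKM.

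Markers of leukocytes and of fibroblasts moved with these genes. Of 7 fibroblast markers 4 rose and 1 fell, with sums of 12700 to 16400 CPM in normal and 44000 to 46400 CPM in untreated libraries. Of 5 stratified epithelium markers 1 rose (KRT5, from 1440 to 4870 CPM, edgeR adjusted p = 0.0101), 1 fell and 3 did not pass. The one that fell was SPRR3 (from 113 to 3.37 CPM), named after its values were seen. The 5 summed to 10300 to 28000 CPM in normal and 11400 to 12800 CPM in untreated libraries. Of 12 measured macrophage markers 10 rose, and their summed level was 390 to 548 CPM in normal and 1870 to 2060 CPM in untreated libraries. Of 6 neutrophil markers 5 rose, with sums of 587 to 2040 and 4700 to 6920 CPM. The neutrophil chemokine receptor CXCR2 was at 1.04 to 2.86 CPM in normal and at 86.0 to 147 CPM in untreated libraries. The part of these cells in the ferritin, TFRC and SLC11A1 values was not tested. Of 4 tested red cell markers none rose or fell, and the 6 in the table summed to 98.3 to 209 CPM in normal and 126 to 201 CPM in untreated libraries. TF and CP are best known as liver products. The 4 liver markers in the table summed to 0.26 to 0.838 CPM per library, and ALB had no count in the normal libraries, where a count of 0 allows up to 0.0692 CPM. The source of the TF and CP transcripts was not tested.

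Markers of airway glands were read beside TF, and they varied among themselves. In normal replicates 1, 2 and 3 the secreted gland protein BPIFA1 was at 8690, 10100 and 655 CPM and its relative BPIFB1 at 11100, 14200 and 912 CPM. In normal folds 4 of the 7 gland markers (BPIFA1, BPIFB1, MUC5B and PIGR) were lowest in replicate 3, where TF was lowest, and AQP5, LYZ and SCGB1A1 were lowest in replicate 2. In untreated folds 6 of the 7 were highest in replicate 1, where TF was highest. LYZ ran against TF there, with 9.35, 711 and 420 CPM in untreated replicates 1, 2 and 3. The 7 gland markers summed to 2650 to 27300 CPM in normal and 1600 to 3450 CPM in untreated libraries, and 2 of them fell. The part of the gland share in the TF values was not tested. Within the untreated group CP ran the other way, lowest in replicate 1 and highest in replicate 2.

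**Figure D3:**
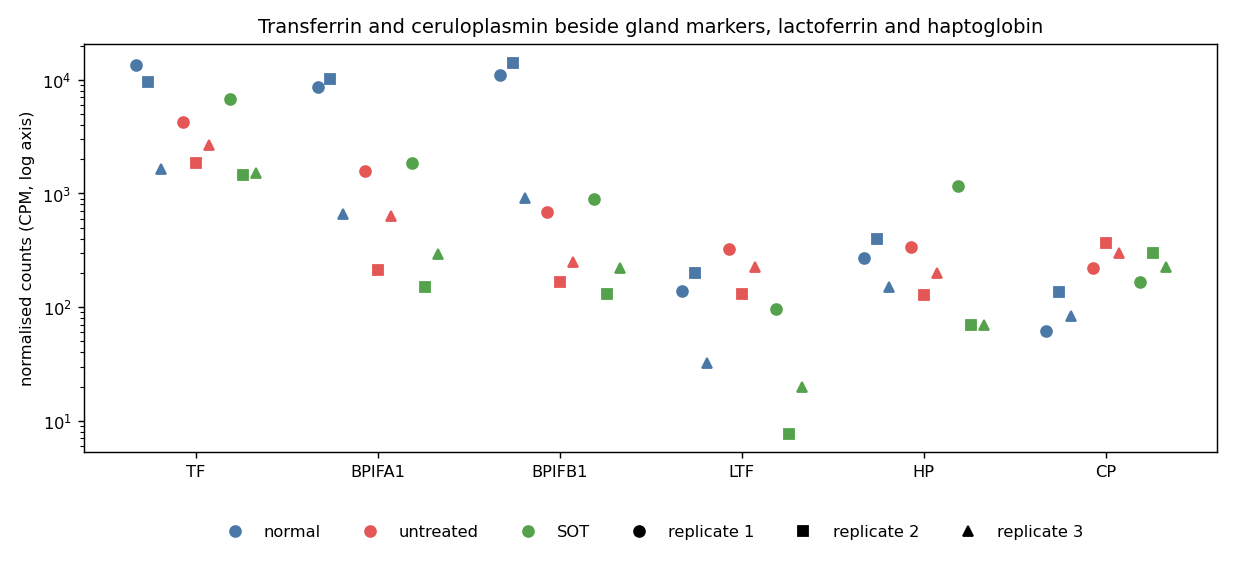
Normalised counts (CPM, log axis) of TF, the gland markers BPIFA1 and BPIFB1, LTF, HP and CP in each library, with a colour per group and a marker shape per replicate. TF was lowest among normal libraries in replicate 3 (1640 CPM), as were BPIFA1 (655 CPM) and BPIFB1 (912 CPM). Of the gland markers not drawn, MUC5B and PIGR were also lowest there. AQP5 (479 CPM), LYZ (7.59 CPM) and SCGB1A1 (6.97 CPM) were lowest in normal replicate 2.

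The other genes of iron and haem handling were read from 6 lists of 56 genes, of which 53 were in the table and 51 were tested. Of these, 10 rose and 10 fell in untreated folds, beside 17.7% and 15.1% of all genes, and their median log2 fold change was -0.14. Of the 11 uptake genes 4 rose, all of them of the STEAP family. Beside STEAP2, these were STEAP1 (log2 fold change 1.62), STEAP3 (1.25) and STEAP4 (1.42), named after their values were seen. STEAP2 was at 13.3, 11.5 and 8.52 CPM in normal and at 51.7, 66.9 and 61.6 CPM in untreated libraries (log2 fold change 2.44, adjusted p = 0.0019). In the same list 3 genes fell. The ferritin receptor gene SCARA5 fell from 382 to 104 CPM (log2 fold change -1.88, adjusted p = 0.0266), and the reductase gene CYBRD1 from 372 to 111 CPM (log2 fold change -1.75, adjusted p = 0.00284). The metal transporter gene SLC39A8, named after its values were seen, was the other that fell (log2 fold change -0.64, adjusted p = 0.00839). The SCARA5 call was lost without normal replicate 2 (0.0749) or 3 (0.0516) or untreated replicate 2 (0.0853) or 3 (0.0910).

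Of 12 tested genes of haem handling, 4 rose and 1 fell. HMOX1, which opens the haem ring and frees its iron, was at 31.2, 29.0 and 38.2 CPM in normal and at 102, 123 and 120 CPM in untreated libraries (log2 fold change 1.81, adjusted p = 0.00176). SLC46A1, a folate carrier that can also bring haem into cells, rose from 7.87 to 28.7 CPM (log2 fold change 1.87, adjusted p = 0.000503). CD163, the macrophage receptor for haemoglobin bound to haptoglobin, was at 23.1 to 28.8 CPM in normal and at 111 to 117 CPM in untreated libraries (log2 fold change 2.11, adjusted p = 0.00307). It is also on the macrophage list. The other rise was in the biliverdin reductase gene BLVRA (log2 fold change 0.74) and the fall in the haem transporter gene SLC48A1 (-0.74), both named after their values were seen.

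Of the hepcidin axis, 6 genes were tested, of which 1 rose and 2 fell. HAMP, which encodes hepcidin, the hormone that closes ferroportin, had 3 counts in SOT replicate 3 and none in the other libraries. HEPH, the membrane ferroxidase beside CP, did not pass, with 1.19 and 0.378 CPM in normal and untreated folds (adjusted p = 0.0833, and 0.0399 by DESeq2). HJV, the hemojuvelin gene, fell from 118 to 16.7 CPM (log2 fold change -2.82, adjusted p = 0.0424). Its call was lost without any normal replicate (0.0878, 0.0818 and 0.0744), untreated replicate 2 (0.0573) or 3 (0.135) or SOT replicate 1 (0.0548). HJV is a gene of skeletal muscle, and the 5 measured muscle markers all fell, from sums of 14700 to 19900 CPM to 514 to 4350 CPM. HJV was lowest in untreated replicate 2 (2.19 CPM), as were the muscle markers, whose part in its value was not tested. BMP6, a ligand that induces hepcidin, was at 20.9, 20.4 and 30.6 CPM in normal and at 12.8, 5.2 and 9.44 CPM in untreated libraries (log2 fold change -1.39, adjusted p = 0.0231). This fall did not pass without normal replicate 3 (0.0638) or untreated replicates 2 (0.0610) or 3 (0.0748). ERFE, a hormone that restrains hepcidin, rose from 5.09 to 9.69 CPM (log2 fold change 0.93, adjusted p = 0.0491). The call was lost with RLE scaling (0.0504), upper-quartile scaling (0.0569) and no filter (0.0548), with the replicate number as a block (0.0757), and in 7 of 9 fits without 1 library. Those fits lacked normal replicate 1 (0.139) or 2 (0.133), untreated replicate 1 (0.0674), 2 (0.125) or 3 (0.135), or SOT replicate 2 (0.0582) or 3 (0.0502).

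Of 5 tested sensing and chaperone genes, 1 rose and 1 fell. FBXL5, the iron-sensing subunit of the ligase that degrades IREB2, was at 92.0, 86.5 and 71.7 CPM in normal and at 116, 137 and 128 CPM in untreated libraries (log2 fold change 0.60, adjusted p = 0.021). It did not pass without normal replicate 2 (0.0513) or 3 (0.0705) or untreated replicate 2 (0.0754) or 3 (0.0685). HERC2, which encodes a ligase that acts on NCOA4, fell from 116 to 83.5 CPM (log2 fold change -0.48, adjusted p = 0.00778). ACO1, which encodes iron regulatory protein 1, was at 77.2 and 136 CPM and missed the threshold (log2 fold change 0.82, adjusted p = 0.0509). It passed without SOT replicate 1 (0.0292) or 3 (0.00567) and in 5 of the 9 other settings, with 0.14 as the highest value over the fits without 1 library.

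Of 15 genes of mitochondrial iron and haem synthesis, 3 fell and none rose. The mitochondrial iron importer SLC25A37 fell from 39.5 to 22.8 CPM (log2 fold change -0.79, adjusted p = 0.00499). NFS1, the desulfurase of iron-sulfur cluster assembly, fell from 44.5 to 30.6 CPM (log2 fold change -0.54, adjusted p = 0.0103). Of the iron binders in secretions, LTF (lactoferrin) had 123 and 227 CPM (adjusted p = 0.496) and LCN2 had 8.40 and 21.5 CPM (adjusted p = 0.268).

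**Figure D4:**
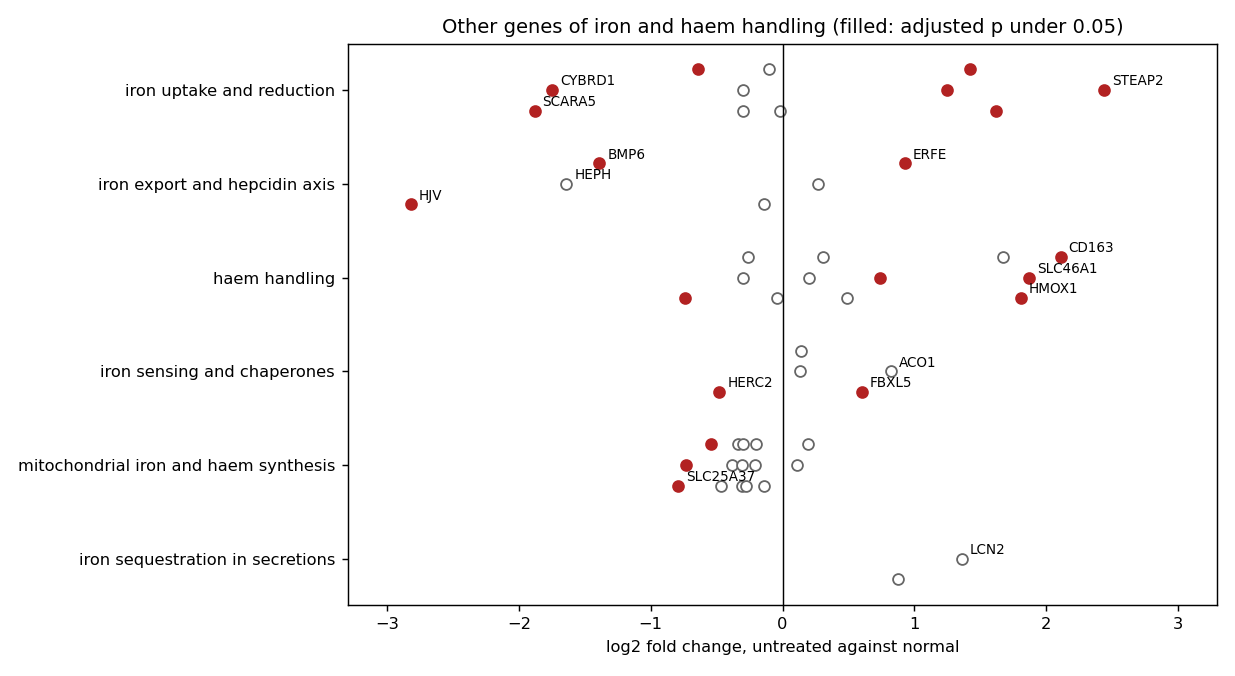
Log2 fold change of the other 51 tested genes of iron and haem handling in untreated against normal folds, by list, filled where the adjusted p (edgeR) was under 0.05. STEAP2 (2.44) and CD163 (2.11) rose most and HJV (-2.82) fell most.

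SOT-treated folds were compared with untreated injured folds to ask whether the gel altered these transcripts. None of the 10 genes passed, where 0.0115% of all tested genes passed, those being 2 genes that fell (LOC103345297, described as linker for activation of T-cells family member 2, and LOC103346274, CMRF35-like molecule 6, named here after their values were seen). At an unadjusted p under 0.05 there were 2 of the 10 genes, FTL and FTH1, beside 12.6% of all genes. DESeq2 called FTL (adjusted p = 0.0168) and no other member, while it called 2.4% of its genes lower, and limma called none. The 10 genes had a median log2 fold change of -0.24, against 0.01 over all tested genes. FTL, FTH1 and IREB2 had groups that did not overlap in CPM, or 3 of 10, as did 19.8% of all genes. For IREB2 this depended on the scaling, since in FPKM its SOT (20.6 to 24.2) and untreated libraries (21.6 to 22.9) overlapped.

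FTL was at 1430, 1670 and 951 CPM in SOT libraries, each between the normal and the untreated range. Its log2 fold change against untreated folds was -0.83 (SE 0.22, 95% interval -1.33 to -0.34, adjusted p = 0.21). FTH1 was at 5250, 2180 and 1810 CPM (log2 fold change -0.98, SE 0.38, 95% interval -1.84 to -0.12, adjusted p = 0.336). TFRC was at 478, 168 and 85.7 CPM (log2 fold change -0.95, SE 0.52, adjusted p = 0.491), and SLC11A1 at 120, 12.4 and 3.47 CPM (log2 fold change -1.26, SE 1.03, adjusted p = 0.647). For FTH1, TFRC and SLC11A1 the group was thus made of replicate 1 near or inside the untreated range and of 2 libraries far below it. In CPM, TFRC in SOT replicate 3 was below every normal library. In FPKM it was not (15.9, against 15.5 in normal replicate 3), so that this order depended on the scaling. As a share of the untreated mean, SOT replicates 1, 2 and 3 stood at 111%, 11.4% and 3.22% for SLC11A1, at 102%, 35.7% and 18.2% for TFRC and at 86.5%, 36.0% and 29.8% for FTH1, but at 59.2%, 69.5% and 39.5% for FTL.

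Without SOT replicate 1, 3 of the 10 genes fell against untreated folds (edgeR), where 1.81% of the tested genes fell: FTH1 (log2 fold change -1.57, adjusted p = 0.020), TFRC (-1.85, adjusted p = 0.0281) and SLC11A1 (-3.73, adjusted p = 0.0338). FTL was not among them (log2 fold change -0.84, adjusted p = 0.184). Without SOT replicate 2 or without SOT replicate 3 none passed. Leaving out each library in turn was planned, but replicate 1 is singled out here after its values were seen, and the labels give no ground for its removal.

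In the SOT libraries all 6 neutrophil markers were highest in replicate 1, where SLC11A1, TFRC and FTH1 were highest, and 4 of them (CXCR1, CXCR2, CSF3R and S100A9) were lowest in replicate 3. S100A8 (761, 149 and 168 CPM) and S100A12 (1390, 733 and 1080 CPM) were lowest in replicate 2. CXCR2 was at 65.6%, 12.6% and 4.26% of the untreated mean in replicates 1, 2 and 3. Of the 12 macrophage markers 10 were highest in replicate 1, and 9 of those were lowest in replicate 3. The highest SOT library was 1.89 to 19.3 times the lowest for the neutrophil markers and 1.06 to 4.17 times the lowest for the macrophage markers, from AIF1 to C1QC (325, 77.9 and 222 CPM), so that the ranges overlapped. The summed markers were at 4660, 1760 and 1990 CPM for neutrophils and at 1330, 811 and 788 CPM for macrophages. Within the untreated group the order was reversed. All 6 neutrophil markers were lowest in replicate 1, where SLC11A1 and TFRC were highest, and highest in replicate 2, where both were lowest. Of the 12 macrophage markers 3 were highest in untreated replicate 1. In the normal libraries 1 of the 6 neutrophil and 7 of the 12 macrophage markers were highest where SLC11A1 was highest. The part of either cell type in the iron gene values was not tested. The FPKM of FTL was 0.255, 0.720 and 0.493 times that of FTH1 in SOT replicates 1, 2 and 3, outside the range of 0.339 to 0.392 in untreated libraries on both sides. The group difference in the log2 ratio was 0.272 (two-sided exact permutation p = 0.7).

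**Figure D5:**
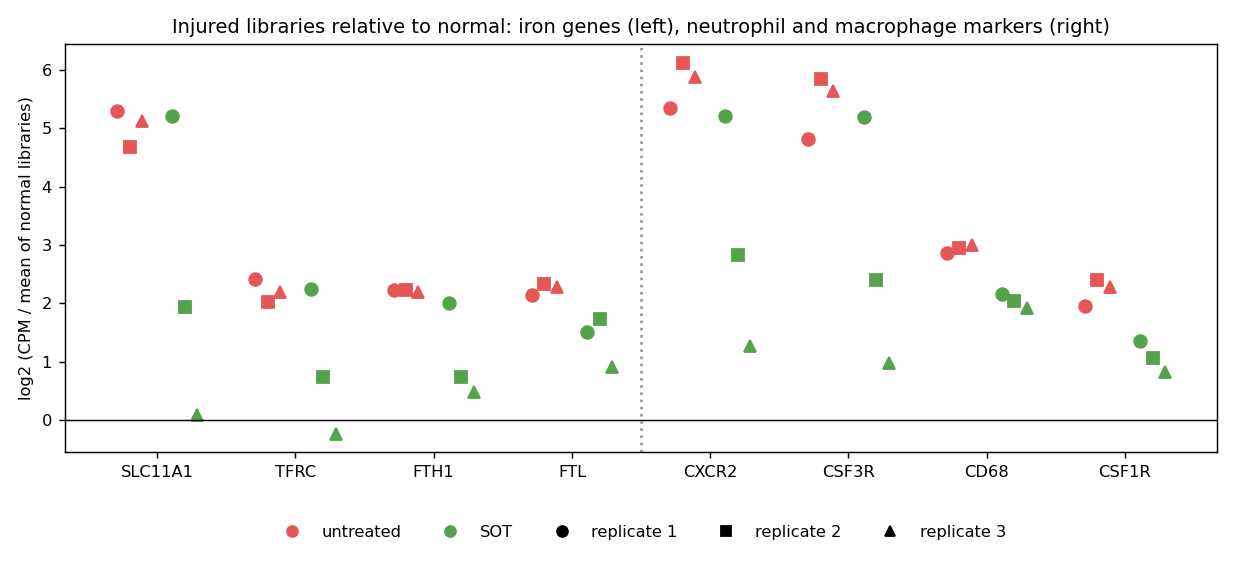
Log2 ratio of each injured library's CPM to the mean of the normal libraries for SLC11A1, TFRC, FTH1 and FTL and for markers of neutrophils (CXCR2, CSF3R) and macrophages (CD68, CSF1R), with a colour per group and a marker shape per replicate. SOT replicate 1 lies apart from SOT replicates 2 and 3 for SLC11A1, TFRC, FTH1, CXCR2 and CSF3R. The 3 SOT libraries lie closer together for CD68 (58.1%, 53.9% and 49.3% of the untreated mean). The neutrophil markers drawn are among the most uneven of their list, and the macrophage markers drawn among the most even. Of those not drawn, the highest SOT library was 2.37 times the lowest for S100A9 of neutrophils and 2.8 times for MRC1 of macrophages.

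The remaining members had overlapping SOT and untreated libraries, apart from IREB2 in CPM. SLC11A2 was at 97.8, 75.0 and 53.3 CPM in SOT libraries (log2 fold change 0.02, 95% interval -0.47 to 0.51). CP was at 166, 300 and 226 CPM (log2 fold change -0.35, 95% interval -1.11 to 0.41). SLC40A1 was at 58.6, 58.8 and 105 CPM (-0.12, 95% interval -0.73 to 0.48 on the log2 scale), with replicate 3 the highest. NCOA4 was at 123, 125 and 204 CPM, also highest in replicate 3 (log2 fold change -0.03, 95% interval -0.63 to 0.58). TF was at 6820, 1460 and 1500 CPM (log2 fold change 0.15, 95% interval -1.72 to 2.03), with replicate 1 again high. Of the 7 gland markers, 3 (AQP5, BPIFA1 and BPIFB1) were also highest in SOT replicate 1, while MUC5B (45.1, 128 and 82.8 CPM), LYZ (8.75, 157 and 224 CPM) and PIGR (1100, 1170 and 1270 CPM) were lowest there and SCGB1A1 peaked in replicate 2 (177 CPM). IREB2 at 131, 145 and 140 CPM lay just at or below the lowest untreated library (log2 fold change -0.10, 95% interval -0.33 to 0.12). Of the 51 other iron and haem genes, none passed with edgeR, and DESeq2 called 1 higher and 1 lower beside 1.25% and 2.4% of its genes.

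SOT-treated folds were also compared with normal folds, with which the untreated folds had been compared, so that the contrasts share libraries. Of the 10 genes, 3 rose and 7 did not pass, where 9.01% of all tested genes rose and 7.67% fell, 16.7% in all. Their median log2 fold change was 1.02 against 0.02 over all genes, and 4 of them (FTL, FTH1, SLC11A2 and CP) had groups that did not overlap, as did 36.4% of all genes. FTL rose by 1.42 on the log2 scale (SE 0.22, adjusted p = 0.00758), and it passed whichever library was removed, with 0.0343 as the highest adjusted p over 9 fits. CP rose by 1.3 (SE 0.34, adjusted p = 0.0347) and SLC11A2 by 0.79 (SE 0.22, adjusted p = 0.0403). The CP call was lost without normal replicate 1 (0.102) or 3 (0.0935), untreated replicate 3 (0.0635) or SOT replicate 2 (0.103) or 3 (0.0549). The SLC11A2 call was lost without any library but SOT replicate 3, with 0.121 as the highest value, without normal replicate 2. In a fit of SOT and normal folds alone, CP (0.0685) and SLC11A2 (0.0951) did not pass.

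FTH1 missed the threshold against normal folds (log2 fold change 1.24, SE 0.38, adjusted p = 0.0574), though every SOT library was above every normal one. It passed by DESeq2 (0.00744), which called 13.1% of its genes higher, and without SOT replicate 3 (0.0224). SLC11A1 (log2 fold change 3.79, SE 1.15, adjusted p = 0.0556) and TFRC (1.27, SE 0.52, adjusted p = 0.127) did not pass, and their SOT and normal libraries overlapped. Both passed without SOT replicate 3 (0.0151 and 0.0216), in a fit where 11.3% of all genes rose, and neither passed without SOT replicate 1, where FTL and CP rose beside 7.38% of all genes. Of the 51 tested genes of the iron-handling lists, 5 were higher and 5 lower in SOT than in normal folds, beside 9.01% and 7.67% of all tested genes. Those higher were STEAP1, STEAP2, HMOX1, SLC46A1 and CD163, and those lower CYBRD1, BMP6, SLC48A1, HERC2 and NFS1, of which STEAP1 and SLC48A1 are named after their values were seen. STEAP1, STEAP2, HMOX1 and SLC46A1 passed in all 9 fits without 1 library, whereas CD163 and SLC48A1 passed in 1, CYBRD1 and BMP6 in 3, HERC2 in 5 and NFS1 in 8. HMOX1 was at 80.6, 126 and 62.6 CPM in SOT libraries (log2 fold change 1.45 against normal, adjusted p = 0.00937), above every normal library. STEAP2 was at 48.6, 53.4 and 21.2 CPM (log2 fold change 1.89, adjusted p = 0.0105).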

How the data were processed

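Whole-tissue RNA was measured in 9 libraries, grouped by their labels. Cutadapt 1.9, HISAT2 2.0.4, StringTie 1.3.4d and edgeR were used with OryCun2.0, per the submitters' processing notes. What each tool did, the use of strand, and how multiply mapped reads were assigned: not given in the sources used here. Per gene and library, the deposited table gives a whole-number read count and an FPKM value, made by the authors, per the file headers. FPKM was used only to compare genes by length and as an alternative.

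The counts went into edgeR 4.0.16 under R 4.3.3: filterByExpr by group, TMM scaling, and a quasi-likelihood fit with 1 mean per group over all 9 libraries, Benjamini-Hochberg adjusted over 17344 genes. SE is the fold change over the root of F. On simulated counts for untreated against normal (17011 genes tested) the fit recovered 15% of 100 genes changed by 1 and 57% of 100 changed by 2 on the log2 scale. No other genes were changed there, whereas 32.8% of tested genes were called in the data. The adjustment is stricter where fewer genes change, so these shares need not hold for the data. A gene that did not pass may still differ. Floors rest on 3 counts and cover counting error only, because the reads carry no molecular identifiers.

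The alternatives were RLE and upper-quartile scaling, DESeq2 1.42.0, limma 3.58.1 on log2(FPKM + 0.1) and log2(FPKM + 1) with FPKM at least 0.1 in 3 libraries, no filter, CPM at least 1 in 3 libraries, the compared groups alone, the replicate number as a block, and each library left out.

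The members and lists were chosen with earlier results of these data known. All 10 members are named. Each iron list contributes up to 3 named genes, ranked by size of change among its genes called in untreated against normal (or its gene of lowest p if no gene was called), with ACO1, FBXL5, HEPH, HMOX1, HAMP and LTF always. The table's names were used, apart from 3 iron genes and 3 markers numbered by locus, whose symbols came from RefSeq mOryCun1.1 by gene number, and HJV, which the table lists as HFE2. Marker lists had 59 of 77 genes in the table. Sequences were not used here. A gene that the naming rule selects is not reported here.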

Additional observations from a re-analysis of the deposited data

How the results depend on the processing

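In untreated against normal folds, 6 members rose under each of the 9 other methods, and 3 to 6 when 1 library was left out (3 without normal replicate 3). FTL, FTH1 and CP passed in all of these fits. The iron pathway genes that fell numbered 6 to 10 when 1 library was left out, with 6 without untreated replicate 2 or 3. All genes called fell from 5692 to 3418 and 3145 without untreated replicates 2 and 3. NCOA4 changed sign without normal replicate 3 (0.25).

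In SOT against untreated folds, members that fell numbered 1 by DESeq2 and 0 to 3 when 1 library was left out (3 without SOT replicate 1), and pathway genes 1 higher and 1 lower by DESeq2. All genes called numbered 2, but 645 by DESeq2, 32 by limma with a pseudocount of 1, 1 with upper-quartile scaling, 0 with the compared groups alone, and 0 to 397 when 1 library was left out (397 without SOT replicate 1). Log2 fold changes near 0 changed sign. TF did so by limma (-0.03 with both pseudocounts), with untreated replicate 2 removed (-0.09) and with SOT replicate 1 removed (-0.96), and reached 0.53 without SOT replicate 3. SLC40A1 did so without untreated replicate 1 (0.07), SOT replicate 1 (0.05) or SOT replicate 2 (0.03), and was as low as -0.42 without SOT replicate 3. SLC11A2 did so without untreated replicate 1 (-0.04) or SOT replicate 1 (-0.18). NCOA4 did so with upper-quartile scaling (0.04), limma (0.07), the compared groups alone (0.01), and without untreated replicate 3 (0.02), SOT replicate 1 (0.12) or SOT replicate 2 (0.10), and was -0.27 without SOT replicate 3. IREB2 did so by limma (0.03).

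In SOT against normal folds, members that rose numbered 5 by DESeq2, 1 with the compared groups alone and 1 to 5 when 1 library was left out. Pathway genes that rose numbered 8 by DESeq2 and 4 to 8 when 1 library was left out, and those that fell 8 with upper-quartile scaling, 8 by DESeq2, 2 with the compared groups alone and 0 to 6 when 1 library was left out. All genes called numbered 2894, but 4718 by DESeq2, 1578 with the compared groups alone and 1135 to 3222 when 1 library was left out. NCOA4 changed sign by limma (0.04) and without normal replicate 3 (0.25), SOT replicate 1 (0.07) or SOT replicate 2 (0.05), and was -0.32 without SOT replicate 3.

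The log2 ratio of FTL to FTH1 ranged from -0.0106 to 0.0939 in untreated against normal folds when 1 library was left out, below 0 without untreated replicates 2 and 3 (-0.0001). It ranged from -0.0688 to 0.6797 in SOT against untreated and from -0.0411 to 0.7074 in SOT against normal folds, below 0 when SOT replicate 2 was left out. For these changes the cause was not tested.

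Whether replicate numbers pair the samples was not settled. Deviations of same-numbered libraries correlated at -0.05 to 0.27 and those of other pairs at -0.28 to 0.17. Not every library correlated best with its own number. With 3 libraries a group, these values cannot exclude shared animals or batches. With the replicate number as a block, 6, 0 and 3 members rose in the 3 comparisons and none fell, and 0 genes of all were called in SOT against untreated. Under the block NCOA4 in untreated against normal (0.01), TF (-0.22) and SLC11A2 (-0.03) in SOT against untreated changed sign, LCN2 passed in untreated against normal (adjusted p = 0.0491), and ERFE in untreated against normal (0.0757) and CD163 in SOT against normal (0.0821) did not.

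With 3 libraries a group, an uncalled gene may still differ. The simulated recovery of 15% of genes changed by 1 on the log2 scale came from counts in which far fewer genes changed than were called in the data. Low counts limit HEPH and HAMP.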

Other observations

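HP, which encodes the haemoglobin-binding protein haptoglobin, was at 271, 397 and 149 CPM in normal, at 340, 127 and 199 CPM in untreated and at 1170, 69.7 and 69.1 CPM in SOT libraries, so that SOT replicate 1 stood above, and SOT replicates 2 and 3 below, every other library. HP was chosen after its values were seen, and it passed in none of the 3 comparisons (edgeR adjusted p between 0.696 and 0.85). LTF was at 97.0, 7.66 and 19.8 CPM and LCN2 at 14.3, 1.72 and 2.01 CPM in SOT replicates 1, 2 and 3, where replicate 1 was again the highest.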
